A study of Mus musculus with 6 samples.

Results

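The mouse mitochondrial genome carries 37 genes, and all of them had a row among the 53090 gene rows of the deposited files. They were taken by symbol, as every row whose name begins with mt-, and comprised 13 mRNAs, 2 ribosomal RNAs (rRNAs) and 22 transfer RNAs (tRNAs). No measured value set the members, but the rule was chosen with earlier results of these data known. The mRNAs were 2.55 to 4.12 log2 units higher in neutrophils of liver than in those of blood once reads that had been credited to near-identical nuclear pseudogenes were counted with them. The rRNAs, which outnumbered the mRNAs in every library, were higher in liver by less than 1 log2 unit and did not pass the main test. Some alternative fits did call them higher, and their levels depend on how much rRNA was removed from each library. The tRNAs were close to absent from the counts.

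Both groups were cells selected with magnetic beads for Ly6G, a surface protein of mouse neutrophils, from mice that had received a diet containing DDC (3,5-diethoxycarbonyl-1,4-dihydrocollidine), which injures the bile ducts, for 1 week. The liver group held 3 libraries from liver suspensions passed over a Percoll gradient, and the blood group held 3 libraries from blood after lysis. No group without DDC was compared. The tissue and the preparation changed together, so their contributions cannot be told apart. The sources used here do not state the strain, sex or age of the mice. Nothing in the labels ties a library to a mouse beyond a stated n of 3, so a p-value here reflects only how far these samples scattered, which may be partly technical.

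Libraries held 13778800 to 17579759 expected counts in liver and 13054748 to 14403892 in blood. Of 14 neutrophil markers, all tested, 0 were higher and 10 lower in liver, with summed levels of 8343 to 14555 CPM (counts scaled by sequencing depth, on library sizes scaled by the trimmed mean of M values) in liver and 23781 to 35067 CPM in blood. Ly6g itself had 11.9, 8.79 and 4.50 CPM in liver and 23.6, 45.6 and 21.3 CPM in blood. Over all 13460 genes tested with edgeR's quasi-likelihood test, 17.4% were called higher and 14.2% lower in liver at a Benjamini-Hochberg adjusted p under 0.05. The median log2 fold change of all tested genes was 0.04, or 0.11 where library totals replaced the scaling.

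The mitochondrial genome is a compact circle that is read from both strands as long precursors by its own RNA polymerase, Polrmt, with the help of the DNA-packaging factor Tfam. The tRNAs lie between most of the other genes, and their excision releases the mRNAs and rRNAs. Transcripts from the start of the heavy-strand precursor supply the rRNAs of the mitochondrial ribosome. The mRNAs encode core subunits of respiratory complexes I, III and IV and of the ATP synthase, complex V. Neutrophils are known for living mainly on glycolysis and for holding few mitochondria.

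In the GRCm38 build the genes run along chromosome M from base 1 to base 15422, with mt-Rnr1 at 70 to 1024, mt-Rnr2 at 1094 to 2675 and the mRNAs between 2751 and 15288. Among the mRNAs only mt-Nd6, at 13552 to 14070, lies on the minus strand of the reference. Several genes overlap, so some reads can belong to neighbours as well. The longest overlap, 43 bases, joins mt-Atp8 and mt-Atp6, subunits of the ATP synthase, and is set in capitals here within chrM:7912-7984 (plus strand):
mt-Atp8 and mt-Atp6: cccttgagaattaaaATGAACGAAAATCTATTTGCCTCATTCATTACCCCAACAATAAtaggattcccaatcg

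A larger source of shared reads lies in the nucleus. Stretches of mitochondrial DNA have been inserted into nuclear chromosomes over evolution, and recent insertions are hard to tell from the original. Of the annotated transcripts outside chromosome M, 7 unprocessed pseudogene models matched a mitochondrial mRNA at 99% identity or more. They lie side by side on the minus strand of chromosome 1, in a block of 4663 bases from 24611535 to 24616197, and differ from chromosome M at 2 of 4140 aligned bases. Gm28661 matches mt-Co2 over 681 bases, Gm10925 matches mt-Atp6 over 678, Gm28437 matches mt-Co3 over 783, Gm10222 matches mt-Nd4l over 294 and Gm28439 matches mt-Nd4 over 876, all without a mismatch. Gm29216 covers the last 483 bases of mt-Co1, and Gm28438 covers 345 bases of mt-Nd3, with 1 mismatch each. The pairs with a mismatch are shown with the differing base in capitals, counted from 1 at the first base of the mitochondrial gene, A1066T in mt-Co1 and T3C in mt-Nd3. The windows are chrM:6390-6423 (plus), chr1:24616155-24616188 (minus), chrM:9459-9491 (plus) and chr1:24613087-24613119 (minus), in that order:
mt-Co1: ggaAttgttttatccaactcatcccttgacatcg
Gm29216: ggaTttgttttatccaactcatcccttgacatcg
mt-Nd3: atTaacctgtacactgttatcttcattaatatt
Gm28438: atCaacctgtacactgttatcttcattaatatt

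For mt-Co2 no letter separates the genes over the aligned length. The first 60 bases, given because the zero count described next fell on this gene, are chrM:7013-7072 (plus) in mt-Co2 and chr1:24615506-24615565 (minus) in Gm28661:
mt-Co2: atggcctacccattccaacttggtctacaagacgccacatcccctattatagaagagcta
Gm28661: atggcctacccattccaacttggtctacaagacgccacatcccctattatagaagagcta

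The counts of these pairs were split unevenly from library to library. The 7 pseudogene models together held 60373, 110916 and 59445 counts in liver and 15805, 7503 and 4916 in blood. That was 42.1% to 53.6% of all counts credited to the pairs in a library. mt-Co2 had 5960, 11350 and 3861 counts in liver and 1124, 615 and 0 in blood, whereas Gm28661 had 13715, 26048 and 18016 in liver and 3400, 2052 and 1966 in blood. Blood library 3 was thus listed at 0 for mt-Co2 with all counts of that pair on the pseudogene. mt-Co3 was likewise listed at 0 in blood library 2, where Gm28437 held 998 counts, and in blood library 3 mt-Atp6 held 1394 counts and Gm10925 held 1. Of the 7 genes only mt-Nd4 kept nearly all of its counts in every library, with 8, 8 and 6 on Gm28439 in liver and 0 in each blood library. Because the letters are the same, the counts do not tell which locus the reads came from. Results are therefore given for the rows as deposited and for the sum of each mitochondrial row and its copy, a sum chosen after the split had been seen. Another 9 pseudogene models with lower identity held 1 to 45 counts per library in all and were left alone.

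**Figure D1:**
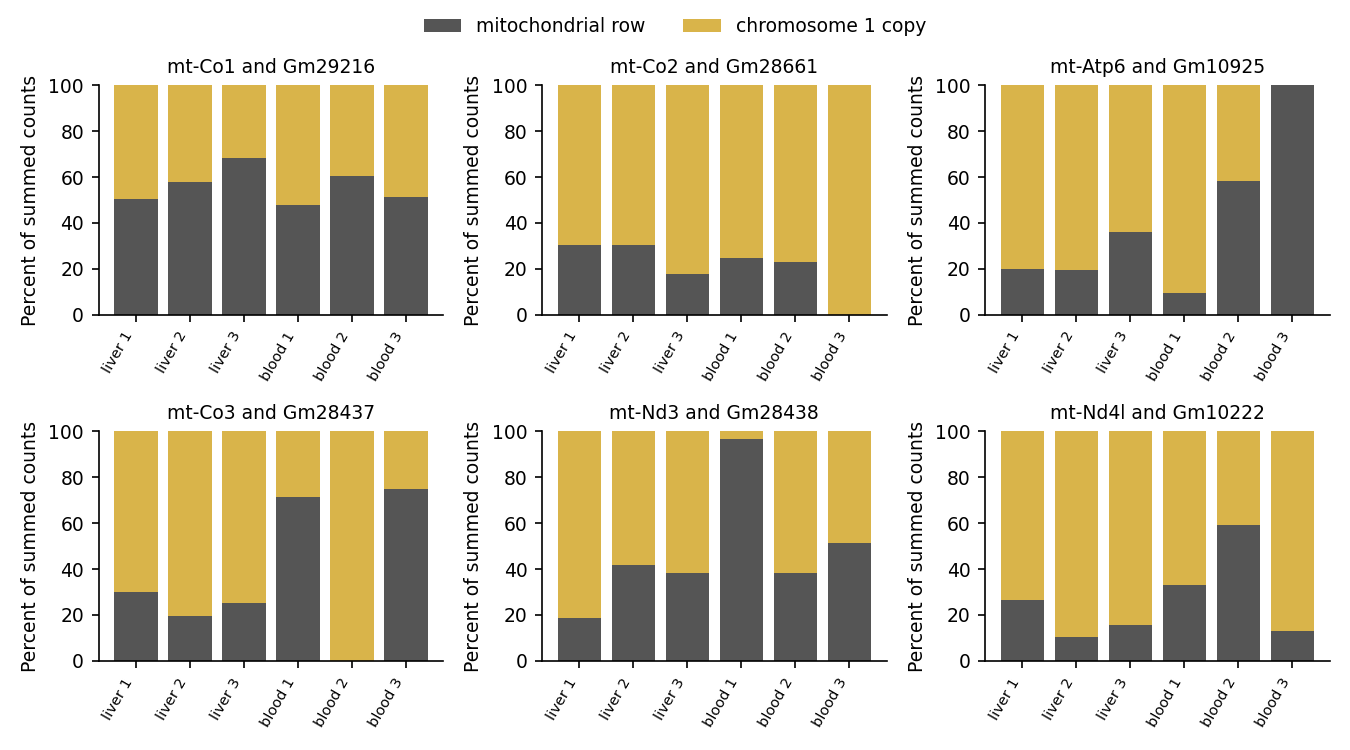
Split of each pair's summed counts, in percent, between the mitochondrial row (dark) and the chromosome 1 pseudogene model (yellow) in each liver and blood library, for 6 pairs (mt-Nd4 is not drawn). The share on the pseudogene ran from 0.0717% to 100%, with mt-Co2 and mt-Co3 each at 100% in a single blood library.

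As deposited, 11 of the 13 mRNAs were called higher in liver and 0 lower, with a median log2 fold change of 3.19, against 17.4% of all tested genes called higher. mt-Co2 and mt-Co3, both listed at 0 in a blood library, were not called. With copies added, 13 of 13 were called higher, with a median of 3.40 and adjusted p from 0.00017 to 0.0045 by edgeR's quasi-likelihood test (17.4% of 13454 genes were called higher in that fit). Every liver library was above every blood library for all 13 mRNAs in either form, a separation found in 25.8% of the tested genes. In bulk libraries such as these, more mitochondria-rich cells and more mitochondrial RNA per cell cannot be told apart.

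Complex I passes electrons from NADH to ubiquinone, and 6 of its 7 mitochondrial subunit genes had the 6 largest fold changes with copies added. mt-Nd2, part of its membrane arm, had 511, 1580 and 663 CPM in liver and 74.7, 48.5 and 34.7 CPM in blood. Its log2 fold change of 4.12 ± 0.51 (SE), or 17.4-fold, was the largest among the mRNAs with all libraries in the fit (adjusted p = 0.0012), and was 3.47 without liver library 2. mt-Nd1, which helps to form the ubiquinone channel, had 491, 1205 and 880 CPM in liver and 90.6, 72.6 and 34.0 CPM in blood, a difference of 3.71 ± 0.46 (adjusted p = 0.0010). Liver library 2 was the highest for both genes, and blood library 3 the lowest. mt-Nd4 and mt-Nd5, which encode large subunits related to proton antiporters, averaged 1812 ± 954 and 1138 ± 486 CPM in liver, against 198 ± 65.5 and 101 ± 52.3 CPM in blood (SD, n = 3 each), and were 9.15-fold and 11.2-fold higher in liver (adjusted p = 0.00093 and 0.0018). mt-Nd6, the mRNA of the other strand, had 286, 717 and 395 CPM in liver and 64.1, 34.9 and 15.8 CPM in blood, and rose by 3.61 ± 0.59 (adjusted p = 0.0046), or 4.28 without liver library 3 and blood library 1 together. It shares 14 bases with mt-Nd5 on opposite strands, and the sources used here do not say whether counting used strand. If strand was not used, reads of the opposite precursor anywhere in mt-Nd6 could be counted with it. The rise of mt-Nd6 may then not be that of its own strand alone. The ratio of mt-Nd6 to mt-Nd5 counts per kilobase was 1.38, 1.50 and 1.38 in liver and 1.48, 1.19 and 1.16 in blood, which overlapped between the groups (exact two-sided permutation p = 0.3).

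The small complex I subunit genes mt-Nd3 and mt-Nd4l gained most in fold change from the pseudogene reads. mt-Nd3 as deposited had 15.5, 52.1 and 38.1 CPM in liver and 11.8, 3.50 and 2.89 CPM in blood, a log2 fold change of 2.54 ± 0.65 (adjusted p = 0.022), or 3.42 without blood library 1. With Gm28438 added it had 82.1, 124 and 99.9 CPM in liver and 12.2, 9.20 and 5.64 CPM in blood, and the difference became 3.50 ± 0.31 (adjusted p = 0.00017). mt-Nd4l had a log2 fold change of 2.26 ± 0.55 as deposited (adjusted p = 0.017) and of 3.51 ± 0.41 with Gm10222 added (adjusted p = 0.00082). The deposited mt-Nd3 call was lost without liver library 2 or 3 or blood library 2 or 3 (adjusted p 0.0506 to 0.0858), and that of mt-Nd4l without liver library 1 or 2 (0.0523 and 0.0505). With copies added both genes were called whichever library was left out.

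mt-Cytb, the cytochrome b subunit of complex III and its only mitochondrial gene, has no near-identical copy among the annotated transcripts. It had 988, 2306 and 1129 CPM in liver and 260, 162 and 92.6 CPM in blood, 8.60-fold higher in liver (log2 fold change 3.10 ± 0.47, adjusted p = 0.0023). The liver and blood values did not overlap.

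Complex IV, cytochrome c oxidase, passes electrons to oxygen, and its catalytic core is encoded by mt-Co1, mt-Co2 and mt-Co3. mt-Co1, which holds the heme and copper site, was the most abundant mRNA of the mitochondrial genome per length in both groups. With Gm29216 added it had 3374, 5804 and 3505 CPM in liver and 1091, 725 and 348 CPM in blood, a log2 fold change of 2.55 ± 0.43 (adjusted p = 0.0026). As deposited its difference was 2.71 ± 0.43. mt-Co2, which receives electrons from cytochrome c, had a deposited difference of 3.30 ± 1.63 (adjusted p = 0.19), called among the fits on deposited rows only without blood library 3 (2.67, adjusted p = 0.0048) or with limma-voom (6.52, 0.033). With Gm28661 added it had 1284, 2254 and 1408 CPM in liver and 325, 234 and 132 CPM in blood, and it rose by 2.84 ± 0.37 (adjusted p = 0.00091). mt-Co3 had 1.87 ± 1.39 as deposited (adjusted p = 0.36), called among those fits only without blood library 2 (1.27, adjusted p = 0.027). With Gm28437 added it had 273, 510 and 477 CPM in liver and 77.2, 87.4 and 35.6 CPM in blood, and it rose by 2.65 ± 0.37 (adjusted p = 0.0015). Each complex IV gene thus passed the test once its copy was included, and the error of mt-Co2 and mt-Co3 shrank.

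The mitochondrial subunits of the ATP synthase are mt-Atp6, which forms part of the proton channel, and the small subunit mt-Atp8. mt-Atp8 had 54.2, 101 and 77.8 CPM in liver and 9.56, 9.20 and 3.36 CPM in blood, 10.6-fold higher in liver (adjusted p = 0.00087). mt-Atp6 as deposited had 242, 419 and 524 CPM in liver and 28.4, 124 and 93.6 CPM in blood, a log2 fold change of 2.27 ± 0.55 (adjusted p = 0.020). That call was lost without liver library 2 or 3 or blood library 3 (adjusted p 0.052 to 0.070). With Gm10925 added, mt-Atp6 had 1211, 2166 and 1453 CPM in liver and 303, 213 and 93.6 CPM in blood, a difference of 2.99 ± 0.43 (adjusted p = 0.0017). The copy changed the order of the blood libraries, with blood library 2 highest as deposited and blood library 1 highest with the copy.

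**Figure D2:**
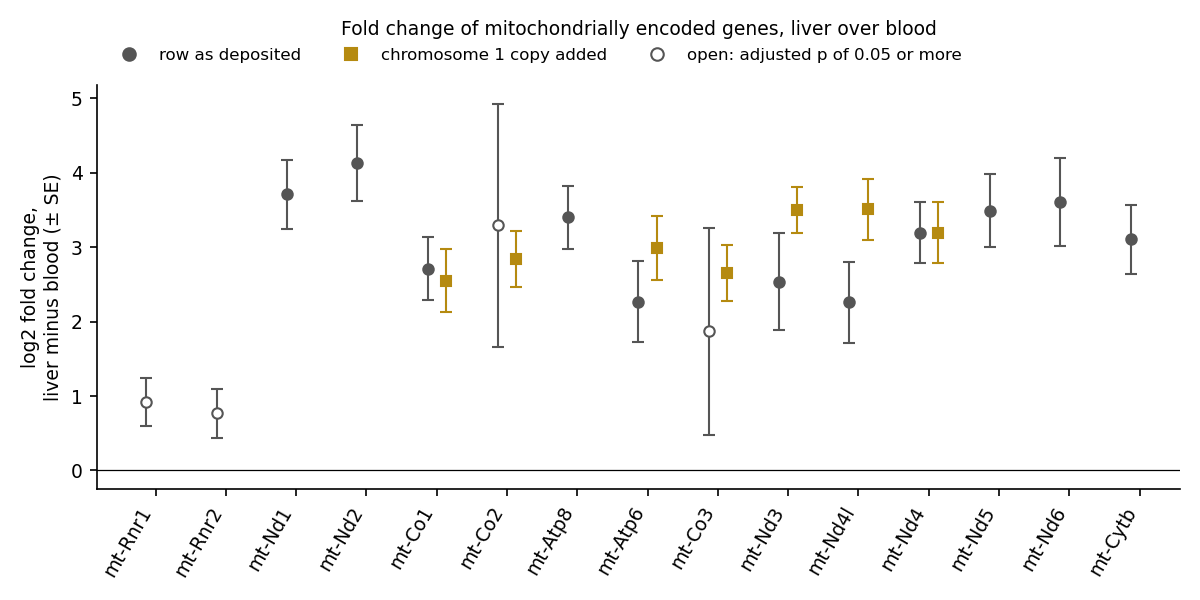
Log2 fold change of each mitochondrial mRNA and rRNA, liver over blood, for the deposited rows and for rows with the near-identical copy added. Bars are standard errors and open points have an adjusted p of 0.05 or more; the mRNAs lie between 2.55 and 4.12 with copies added and the rRNAs at 0.92 and 0.77.

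Per length, with copies added, the order of the mRNAs was similar in both groups. mt-Co1, mt-Co2 and mt-Atp6 came first in each, at 2736 ± 884, 2410 ± 772 and 2364 ± 729 CPM per kilobase in liver and 467 ± 241, 337 ± 141 and 298 ± 154 CPM per kilobase in blood. These neighbours differed by less than their spread. mt-Nd3 was lowest in both, at 293 ± 60.7 CPM per kilobase in liver and 25.9 ± 9.46 in blood, followed by mt-Atp8 at 380 ± 114 and 36.1 ± 17.1.

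**Figure D3:**
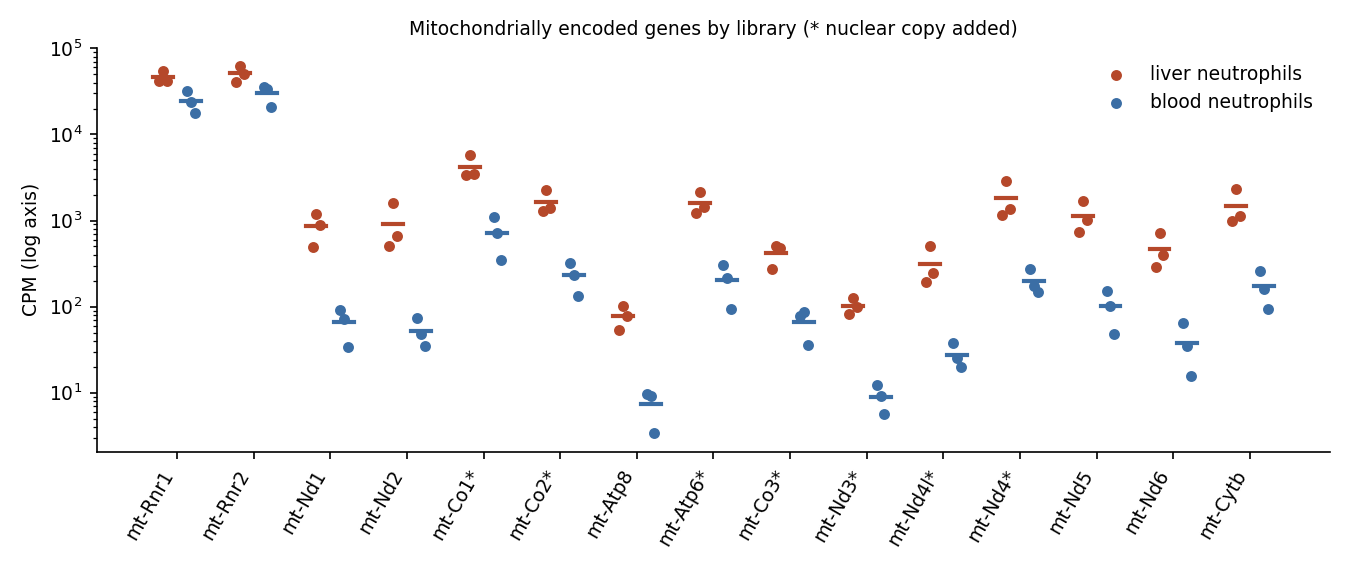
Level of each mitochondrial mRNA and rRNA in CPM, not divided by length, on a log axis, with copies added where starred, for the 3 liver and the 3 blood libraries (points) and their mean (lines). For every mRNA the liver points lie above the blood points, and both rRNAs lie above every mRNA in both groups.

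The make-up of the mitochondrial mRNA by complex was compared within each library. Genes of complex I made up 32.4%, 39.9% and 36.7% of the mitochondrial mRNA CPM in liver and 25.4%, 24.5% and 30.4% in blood, with copies added. Complex IV genes made up 46.4%, 39.2% and 42.4% in liver and 53.9%, 55.2% and 50.9% in blood. The groups did not overlap for either complex, with complex I taking more and complex IV less of the mRNA in liver (exact two-sided permutation p = 0.1 for each, the smallest that 3 libraries against 3 allow). Complexes III and V overlapped between groups, at 8.87% to 10.6% and 10.4% to 12.0% in liver and 8.54% to 9.38% and 9.58% to 11.7% in blood (exact two-sided p = 0.5 for each). Among single genes, mt-Co1 took 31.8%, 26.6% and 27.5% in liver and 39.4%, 38.3% and 34.3% in blood, and mt-Nd2 took 4.80%, 7.24% and 5.21% in liver and 2.70%, 2.56% and 3.43% in blood. The log2 ratio of complex I to complex IV mRNA, a measure picked after these values were seen, was 0.77 higher in liver, or 0.61 for the deposited rows (exact two-sided p = 0.1 for each), and 0.64 to 0.91 higher with a library left out.

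**Figure D4:**
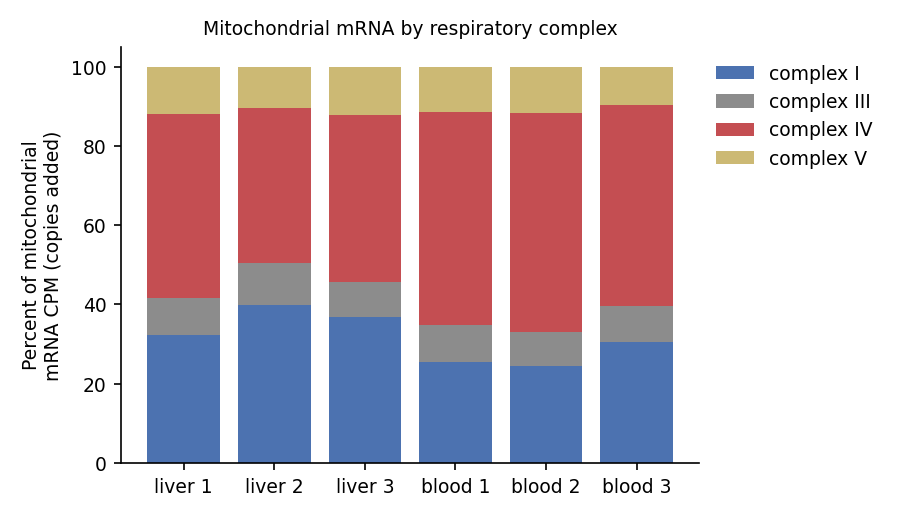
Stacked bars of the percent of the mitochondrial mRNA CPM that each respiratory complex took in the liver and blood libraries, with copies added. Complex I took 32.4% to 39.9% in liver and 24.5% to 30.4% in blood, and complex IV 39.2% to 46.4% in liver and 50.9% to 55.2% in blood.

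The rRNAs are the RNA parts of the mitochondrial ribosome, mt-Rnr1 of its small and mt-Rnr2 of its large subunit. mt-Rnr1 had 41878, 55283 and 42161 CPM in liver and 32197, 23696 and 17715 CPM in blood. mt-Rnr2 had 41069, 62211 and 50963 CPM in liver and 35447, 34165 and 21060 CPM in blood. For both genes every liver library was above every blood library, as was the case for 25.8% of all tested genes. The log2 fold changes were 0.92 ± 0.32 for mt-Rnr1 (adjusted p = 0.054) and 0.77 ± 0.33 for mt-Rnr2 (adjusted p = 0.10), so that 0 of 2 were called, although both had an unadjusted p under 0.05 (0.017 and 0.042) by edgeR's quasi-likelihood test. DESeq2 called both (adjusted p = 0.0050 and 0.027), and limma-voom called mt-Rnr1 (0.024) but not mt-Rnr2 (0.053). Per kilobase, mt-Rnr2 stood at 0.592, 0.679 and 0.730 of mt-Rnr1 in liver and 0.665, 0.870 and 0.718 in blood, which overlapped (exact two-sided p = 0.5). Low-input total-RNA kits of the type named in the labels include a step that cuts cDNA of ribosomal RNA before the final amplification. The sources used here do not say how far that step went in each library, so these levels are those of the rRNA that was left. Gm26917 and Gm42418, gene models over cytosolic rRNA, together took 2.20%, 1.15% and 2.70% of counts in liver and 0.420%, 0.447% and 0.0923% in blood. Both were called higher, but Gm26917 lost its call without 2 and Gm42418 without 4 of the 6 libraries. Lars2, tested in the same list, was lower in liver without being called (mean 287 CPM in liver and 449 CPM in blood, log2 fold change -0.65). The part of these genes in the result was not tested.

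The mRNAs and rRNAs were also set against each other within each library. Mitochondrial mRNAs with copies took 1.07%, 2.06% and 1.44% of all counts in liver and 0.268%, 0.166% and 0.1103% in blood. The rRNAs took 8.33%, 11.1% and 10.5% in liver and 6.53%, 5.06% and 4.22% in blood. For each mRNA count there were 7.80, 5.38 and 7.32 rRNA counts in liver and 24.4, 30.5 and 38.3 in blood. The lowest blood value was above the highest liver value. The log2 ratio of mRNA to rRNA counts was 2.18 higher in liver with copies added and 2.26 higher as deposited, with an exact two-sided permutation p of 0.1 for each, the smallest possible among 20 arrangements. This ratio is taken within each library and does not depend on how libraries were scaled, but it does depend on how much rRNA was removed.

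**Figure D5:**
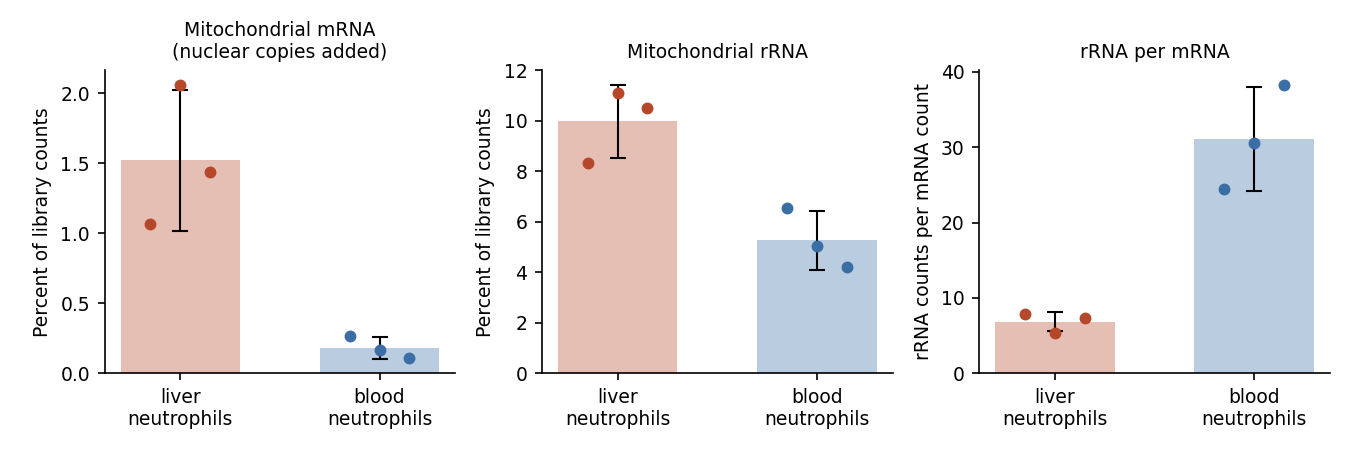
Percent of all counts taken by mitochondrial mRNA (copies added) and by mitochondrial rRNA, and rRNA counts per mRNA count, with points for the libraries, bars for the mean and error bars for the SD of 3 liver and 3 blood libraries. The mRNA share was 1.07% to 2.06% in liver and 0.1103% to 0.268% in blood, the rRNA share 8.33% to 11.1% in liver and 4.22% to 6.53% in blood, and the ratio 5.38 to 7.80 in liver and 24.4 to 38.3 in blood.

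The 22 tRNAs, which carry the amino acids for the mitochondrial ribosome, are 59 to 75 bases long, and 19 of them had 0 counts in all 6 libraries. The only counts fell on mt-Tq (glutamine), with 0, 2 and 3 in liver and 0 in each blood library, on mt-Tg (glycine), with 0, 0 and 3 in liver and 0, 1 and 1 in blood, and on mt-Ts1 (a serine tRNA), with 1 in liver library 1. These genes are named because they were the only ones counted, outside the rule of at least 10 counts. They are printed whole, in lower case, from chrM:3772-3842 (minus), chrM:9391-9458 (plus) and chrM:6870-6938 (minus), in that order:
mt-Tq: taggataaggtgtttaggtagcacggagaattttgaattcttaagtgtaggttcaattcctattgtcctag
mt-Tg: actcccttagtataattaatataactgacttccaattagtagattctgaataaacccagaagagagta
mt-Ts1: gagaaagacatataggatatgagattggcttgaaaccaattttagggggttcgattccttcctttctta

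In sum the tRNAs had 1, 2 and 6 counts in liver and 0, 1 and 1 in blood, which overlapped, and none had enough counts to be tested. A count of 0 in these libraries allows a level of up to 0.171 to 0.230 CPM, from counting error alone. The share of counts on tRNAs did not differ beyond its spread (exact two-sided p = 0.3). The log2 ratio of tRNA to mRNA counts, with 0.5 counts added to the tRNA sum, was -1.88 (liver minus blood, exact two-sided p = 0.2). With tRNA sums this small the ratio depends on the added 0.5 and on the mRNA counts, so it does not measure the tRNAs. Whether the libraries and the counting recovered RNAs of 59 to 75 bases was not tested. With so few counts no difference in the tRNAs was detectable.

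Nuclear genes that make or use mitochondrial RNA were called in both directions. Of 16 tested genes of mitochondrial DNA transcription and maintenance, 1 was called higher (Mgme1, a mitochondrial exonuclease) and 1 lower (Tk2, mitochondrial thymidine kinase, log2 fold change -1.17), with a median of -0.05, against 17.4% and 14.2% of all tested genes. Tfam had 3.72, 6.20 and 7.66 CPM in liver and 4.24, 5.52 and 4.43 CPM in blood (log2 fold change 0.31, adjusted p = 0.56). Polrmt had 3.72, 3.85 and 7.08 CPM in liver and 4.24, 3.50 and 3.89 CPM in blood (0.33, adjusted p = 0.56). Both overlapped between the groups. The Mgme1 call was lost without any library except blood library 3.

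Genes of mitochondrial RNA processing and stability had 8 of 20 called higher and 1 lower, with a median of 0.48, where 17.4% and 14.2% of all tested genes were called. Pde12, a phosphodiesterase that trims poly(A) tails, had a mean level of 59.6 ± 11.0 CPM in liver, against 21.2 ± 3.91 CPM in blood (log2 fold change 1.49, adjusted p = 0.0018). Lrpprc, which binds and stabilises mitochondrial mRNAs, had 7.90, 6.81 and 16.0 CPM in liver and 3.09, 3.85 and 3.16 CPM in blood (1.60, adjusted p = 0.015), and its call was lost without liver library 3 or blood library 1 (highest adjusted p 0.066). Supv3l1, a helicase of the mitochondrial degradosome, was also higher (1.99, adjusted p = 0.0026), and Ptcd1, a pentatricopeptide protein, was lower (-1.38, adjusted p = 0.0046). Pnpt1, Rexo2, Fastkd1, Fastkd2 and Fastkd5 made up the rest of the calls, and each lost its call without 3 to 5 of the 6 libraries. Of 19 genes that modify mitochondrial tRNA or rRNA, 2 were called higher (Pus1 and Qtrt1) and 1 lower (Trub2), and of 12 translation factors 1 was higher (Gfm1) and 0 lower. Neither of these higher counts was above the 17.4% of all tested genes. The Qtrt1 and Trub2 calls were lost without 3 and 4 of the 6 libraries.

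Regulators of mitochondrial biogenesis had 3 of 10 called higher and 2 lower, against 17.4% and 14.2% of all tested genes. Pprc1, a coactivator related to PGC-1alpha, had 16.8, 16.7 and 27.4 CPM in liver and 5.61, 7.09 and 2.55 CPM in blood (log2 fold change 2.00, adjusted p = 0.0061). Gabpb1 and Myc were the others that rose, Myc losing its call without 4 of the 6 libraries, and Yy1 and the mitochondrial deacetylase gene Sirt3 fell. Ppargc1b did not pass the test (1.80, adjusted p = 0.22), and Ppargc1a was not tested. Genes for proteins often used to gauge mitochondrial mass had 5 of 20 called higher and 0 lower, against the same shares of all tested genes. Their median was 0.64, and these are RNA levels, not protein. Those 5 were Hspa9, Hspd1, Hspe1, Lonp1 and Tomm20, which encode chaperones and a protease of the matrix and an import receptor. Hspa9 had 111, 102 and 113 CPM in liver and 20.4, 15.6 and 21.4 CPM in blood (2.50, adjusted p = 0.00010), and Tomm20 had 62.2, 68.2 and 49.4 CPM in liver and 16.1, 23.5 and 18.3 CPM in blood (1.64, adjusted p = 0.0011). Lonp1 lost its call without 4 of the 6 libraries. Citrate synthase (Cs) and the outer membrane channel Vdac1 were not called, with log2 fold changes of -0.10 and -0.14.

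Mitophagy genes, which remove damaged mitochondria, had 2 of 13 called higher (Sqstm1 and Optn) and 4 lower (Pink1, Bnip3l, Fkbp8 and Ulk1), against 17.4% and 14.2% of all tested genes. Pink1, the kinase that marks depolarised mitochondria, had 47.0, 38.7 and 34.0 CPM in liver and 75.8, 132 and 112 CPM in blood (-1.42, adjusted p = 0.0027). Among 10 genes of fission and fusion 1 was higher (Dnm1l) and 3 lower (Fis1, Mff and Oma1), read against the same shares. Optn, Fkbp8, Ulk1 and Oma1 each lost the call without 4 of the 6 libraries. Of 9 genes that sense mitochondrial nucleic acids, 1 was called in each direction. Tlr9, the receptor for unmethylated DNA, was higher, with 42.0, 48.4 and 40.2 CPM in liver and 4.89, 5.43 and 4.16 CPM in blood (3.17, adjusted p = 8.9e-05). Tlr8, a receptor for RNA fragments, was lower (-1.56, adjusted p = 0.0022).

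Transcripts marking other cell types also differed between the groups. The counts of calls are read against 17.4% of all tested genes called higher and 14.2% called lower. Hepatocyte markers, whose cells are rich in mitochondria, were called higher in 7 of 7 tested, with sums over 13 genes of 272 to 513 CPM in liver and 108 to 151 CPM in blood. Alb had 7.25, 73.2 and 148 CPM in liver and 2.44, 0.0876 and 0.470 CPM in blood. Kupffer cell and macrophage markers were higher in 5 of 13, summing to 498 to 911 CPM in liver and 328 to 525 CPM in blood. Clec4f, a Kupffer cell marker, had 17.0, 5.12 and 59.8 CPM in liver and 0.359, 0 and 0 CPM in blood. Monocyte markers were higher in 8 of 11, with 3050 to 4064 CPM in liver and 299 to 770 CPM in blood. Endothelial markers were higher in 6 of 8 (115 to 152 CPM in liver and 43.8 to 70.7 CPM in blood), and dendritic cell markers in 4 of 10 (42.2 to 102 CPM in liver and 18.7 to 23.6 CPM in blood). Cholangiocyte markers were higher in 3 and lower in 2 of 5, with Krt19, Sox9 and Cftr at 0 in every blood library and sums of 124 to 169 CPM in liver and 97.7 to 208 CPM in blood. T and NK cell markers were higher in 1 and lower in 1 of 9 (9.70 to 29.7 CPM in liver and 9.06 to 13.8 CPM in blood), neither above those shares. In the other direction, platelet markers were lower in 4 of 9 (46.4 to 55.9 CPM in liver and 66.9 to 489 CPM in blood) and B cell markers in 3 of 9 (69.2 to 82.6 CPM in liver and 58.5 to 298 CPM in blood), while 0 of 9 erythroid markers were called (151 to 2775 CPM in liver and 381 to 34335 CPM in blood).

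Within the liver group, library 2 had the highest mRNA share. Its Kupffer cell, monocyte, endothelial, dendritic cell, platelet and T and NK cell sums were the lowest of the 3 liver libraries. Its erythroid, B cell, cholangiocyte and neutrophil sums (2775, 82.6, 169 and 14555 CPM) were the highest. The hepatocyte sums were 272, 324 and 513 CPM. Liver library 1, with the lowest hepatocyte sum, also had the lowest mRNA share (1.07% of counts). Liver library 3, with the highest hepatocyte sum, had 1.44% of counts on the mRNAs. Among the blood libraries, library 1 had the highest and library 3 the lowest mRNA share. The same held for the platelet (489, 151 and 66.9 CPM), erythroid (34335, 15052 and 381 CPM), endothelial (70.7, 50.5 and 43.8 CPM) and Kupffer cell and macrophage sums (525, 407 and 328 CPM). It also held for the T and NK cell sums (13.8, 9.55 and 9.06 CPM). It did not hold for the hepatocyte (151, 108 and 118 CPM), monocyte (770, 299 and 625 CPM) and dendritic cell sums (23.6, 18.7 and 21.2 CPM). Nor did it hold for the B cell (138, 298 and 58.5 CPM), cholangiocyte (164, 208 and 97.7 CPM) and neutrophil sums (23781, 35067 and 24399 CPM). The part of other cells in the mitochondrial difference was not tested. Without liver library 3 and blood library 1, which had high markers of other cells, 10 of 13 mRNAs were called higher as deposited. With copies added, 13 of 13 were called higher in that fit. The remaining libraries still differed in the monocyte sums, at 3656 and 3050 CPM in liver and 299 and 625 CPM in blood. Blood library 1 also had the highest mRNA share in blood, so this fit does not test the part of other cells.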

How the data were processed

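The values deposited by the authors are expected counts for each gene. The submitters' processing notes name STAR, RSEM, FastQC 0.11.5, limma and the GRCm38 build. The sources used here do not state the versions of STAR and RSEM or the strand setting. RSEM shares reads with several matches among genes, which bears on genes with near-identical copies. Stranded total-RNA libraries were made with a low-input kit, per the labels' protocols.

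Expected counts were rounded to whole numbers. Genes passing filterByExpr (minimum count 10, minimum total 15) were scaled by TMM and tested, all 6 libraries in the fit, with the robust quasi-likelihood test of edgeR 4.0.16 (R 4.3.3). p-values were adjusted by Benjamini-Hochberg over all tested genes, and calls were made at 0.05. Fold changes are liver over blood. Class shares and ratios were compared by exact two-sided permutation tests. GENCODE M21 gave coordinates and transcript sequences and held 98.7% of the row identifiers. Nuclear copies were found with BLAST+ 2.17.0 (identity of at least 90% over at least 100 bases, near-identical at 99%). Replicates differed beyond counting noise. The test was tried on simulated counts.

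All mRNAs and rRNAs were named. Named genes of other lists were the called genes of largest change with a mean of at least 10 CPM, up to 4 per list, and a fixed set; further called genes are listed after their values were seen. The mt- prefix alone set the members, but the prefix rule and the other lists were chosen with earlier results of these data known. The alternatives were size factors (RLE), library totals, scaling without mitochondrial and rRNA rows, no filter, DESeq2 1.42.0, limma-voom (limma 3.58.1), a non-robust fit, a replicate block, and libraries left out.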

Additional observations from a re-analysis of the deposited data

How the results depend on the processing

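In 29 alternatives, 15 genes (13 mRNAs and 2 rRNAs) gave 435 log2 fold changes, all positive, the lowest being 1.27 for an mRNA and 0.52 for an rRNA. The 14 alternatives with copies added, chosen after seeing the data, called 13 mRNAs higher each time. The number of rRNAs called higher, 0, became 2 with library totals only, with no filter and with DESeq2, and with library totals or DESeq2 when copies were added; it became 1 with limma-voom, with or without copies. Only 2829 genes were called without liver 3 and blood 1, or 2834 with copies added, against 4253 with all libraries. With a library left out, 3072 to 3557 genes were called, 8 to 11 mRNAs higher and 0 lower, 0 rRNAs and 0 tRNAs. The difference in share, for rows as deposited, was then 0.724 to 1.10 percentage points for mRNA (0.922 with all libraries, and 1.34 with copies added), 4.14 to 5.53 for rRNA and 3.97e-06 to 2.25e-05 for tRNA. The log2 mRNA to rRNA ratio differed by 2.07 to 2.41 and the tRNA to mRNA ratio by -2.72 to -1.35. The log2 fold change of Tfam turned to -0.028 without liver 3 and blood 1, and that of Polrmt, -0.039 to 0.48 with a library left out, was negative without liver 3; neither was called, and the cause was not tested.

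Same-numbered libraries of the groups correlated by 0.054, 0.156 and 0.023 in their deviations. Liver 1 and liver 2 were closest to the blood library of their own number, whereas liver 3 was closest to blood 1 (0.121). Correlations this small cannot decide whether the numbers mark pairs. The numbers were not taken as pairs because no label says that they mark a mouse. With a replicate block, 4636 genes were called, with 10 mRNAs and 2 rRNAs higher, or 4649, 13 and 2 with copies added. The tRNAs were counted at most 5 times per gene over all libraries, too few to test. Share and ratio tests of 3 against 3 cannot pass 0.05.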
